A study of Homo sapiens with 6 samples.

Results

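The genes described here are 10 members of the Notch pathway, chosen by name. These are the receptor NOTCH1, the ligands DLL1, DLL3 and JAG1, HES1, HES5 and HES6, and the fringe glycosyltransferases MFNG, LFNG and RFNG. They are 10 of 19974 protein-coding genes on chromosomes 1 to 22 and X of the RefSeq GRCh38 gene table. A peak or differential region was assigned to a gene when it overlapped the gene's span, extended by 2 kb on each side, by at least 1 bp. D283, an established Group 3 medulloblastoma cell line, was grown as tumorspheres (floating spheres of cells) in Neural Precursor media, on plates of the ultra-low attachment kind. Cells received OTX2 siRNA at 30 nM (OTX2low) or a Scramble siRNA (OTX2high), and the trimethyl marks H3K4me3 and H3K27me3 were each mapped by chromatin immunoprecipitation sequencing in 1 library per condition. OTX2 is a homeodomain transcription factor that is highly expressed in these tumors. All libraries come from this 1 cell line, so the values describe 1 pair of libraries per mark, with no replicate check.

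Notch receptors are cut after they bind a Delta or Jagged ligand on a neighbouring cell, and the freed intracellular part enters the nucleus, where it joins the DNA-binding protein RBPJ and switches on target genes. The best known targets are HES genes, whose products are repressors that hold neural progenitors back from differentiating, while fringe enzymes extend sugar chains on the receptor and so change which ligands activate it. H3K4me3 marks active and poised promoters, H3K27me3 is placed by Polycomb repressive complex, and both together are typical of developmental genes held silent but ready for use.

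The sequences before the starts of HES1 and HES5 are shown because both genes are direct Notch targets and HES1 had a differential H3K4me3 region over its start. They are the 250 bases before the RefSeq start (GRCh38.p14), 5′ to 3′ on the gene's strand, at chr3:194135898-194136147 on the + strand for HES1 and chr1:2530264-2530513 on the - strand for HES5. Capitals mark the core letters of the RBPJ motif, TGGGAA, on either strand.
HES1: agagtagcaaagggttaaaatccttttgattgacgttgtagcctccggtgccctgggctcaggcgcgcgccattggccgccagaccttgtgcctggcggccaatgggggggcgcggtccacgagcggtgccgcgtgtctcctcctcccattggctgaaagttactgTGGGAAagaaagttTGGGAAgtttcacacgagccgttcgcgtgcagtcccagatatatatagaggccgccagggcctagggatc
HES5: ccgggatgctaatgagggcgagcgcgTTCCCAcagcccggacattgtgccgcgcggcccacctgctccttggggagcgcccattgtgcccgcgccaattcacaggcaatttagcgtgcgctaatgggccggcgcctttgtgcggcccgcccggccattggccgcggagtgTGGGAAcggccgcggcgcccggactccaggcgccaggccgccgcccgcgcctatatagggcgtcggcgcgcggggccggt

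The HES1 window held 2 copies of the RBPJ core, both on the gene's strand, with first letters at -84 and -70, where -1 is the last base before the start. The copies lay 14 bp apart. The HES5 window also held 2 copies, on opposite strands at -224 and -80, which is 144 bp apart. Among 22156 RefSeq promoter windows of the same length, 20.1% held at least 1 copy and 2.68% held 2 or more. Of the other members with a window, LFNG had 1 copy, at its second listed start, and NOTCH1, JAG1, HES6 and RFNG had none. The window of HES1 held 3 copies of the N-box letters CACNAG, a sequence that HES proteins bind, and 30.9% of all windows held at least 1. The E-box letters CANNTG, read by neural basic helix-loop-helix activators, were present in the windows of HES5, HES6, RFNG and both starts of LFNG, against 58.1% of all windows. The OTX2 motif letters TAATCC, also searched on both strands, were in none of the 8 windows of these 7 genes and in 4.86% of all windows. A match or its lack describes the letters of this window only. CpG dinucleotides numbered 36 before HES5, 35 before HES6, 35 before RFNG and 33 before NOTCH1, against a median of 16 over all windows. HES1 with 18 and JAG1 with 17 were near that median, and the starts of LFNG had 8 and 6.

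The H3K4me3 libraries held 33137731 tags (OTX2high) and 20914582 tags (OTX2low). The list labelled OTX2high for H3K27me3 came from 40271458 tags and the one labelled OTX2low from 33885628, but the header of each H3K27me3 list names the opposite condition from its sample label. These lists are therefore called by label and give no direction here. For H3K27me3 differences the conditions are those named by the differential table's header, whose depths go with the peak headers, so every H3K27me3 direction would turn around were the sample labels the correct ones. The label of the cells was set against H3K4me3 peaks: 6 of 6 marker genes of Group 3 medulloblastoma and 5 of 5 neural markers had one in both conditions. Since 75.0% and 73.7% of all protein-coding genes had one, these counts say little about identity, and 4 of the 5 neural markers also had an H3K27me3 peak in each list. Of the immune markers reported here, CD3E and LYZ had none in either condition and PTPRC had one in OTX2high, while the endothelial markers PECAM1 and VWF and the glial markers GFAP and MBP had none. Peaks did lie at CDH5, AQP4, EPCAM, COL1A1 and MYOD1 in both conditions, markers of other cell types whose part in the results was not tested.

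H3K4me3 peaks were found at 9 of the 10 genes in OTX2high, against 75.0% of all protein-coding genes, and at 10 of 10 in OTX2low, against 73.7%. The exception was MFNG, which had peaks in OTX2low alone. HES5 was counted through a peak outside its span, over the start of the neighbouring gene PANK4, and had none over its span. H3K27me3 peaks lay at DLL1, DLL3 and MFNG in the list labelled OTX2high, which is 3 genes against 25.8% of all genes, and at DLL1 and MFNG in the list labelled OTX2low, which is 2 against 17.7%. NOTCH1, JAG1, HES1, HES5, HES6, LFNG and RFNG had no H3K27me3 peak in either list. Peak folds, here and below, are the authors' own values of ChIP signal over local background at the summit, and they rank peaks within a list only.

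**Figure D1:**
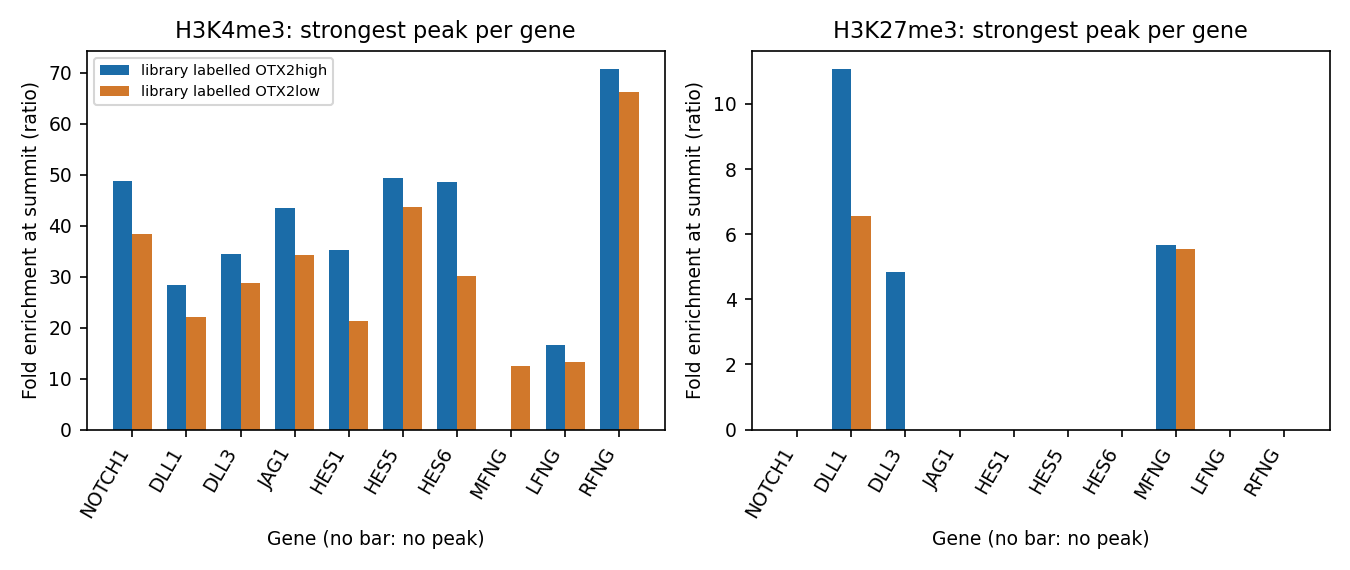
Bars give the fold enrichment (a ratio, linear axis from 0) of the strongest peak at each gene, for H3K4me3 on the left and H3K27me3 on the right, with 1 library per bar and colours for the condition in the sample label. RFNG had the strongest H3K4me3 peak of the 10 genes in both lists, at 70.8 and 66.2, and MFNG had a bar in OTX2low alone. DLL1, DLL3 and MFNG were the genes with H3K27me3 bars. The HES5 bars stand for a peak outside that gene, over the start of PANK4.

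The comparison of OTX2high with OTX2low asked which genes differed in either mark when OTX2 was silenced. It rests on the authors' windowed G-test of 1 library against 1, which compares the reads of those libraries, not the conditions. Of 9 genes inside the stretch of chromosome that was scanned, 5 had H3K4me3 regions that were all higher in OTX2high (NOTCH1, DLL1, JAG1, HES1 and HES6), against 42.0% of 19835 scanned genes. MFNG alone was higher in OTX2low, against 6.04%, and DLL3 had regions of both directions, against 6.03%. HES5 and LFNG had no region. For H3K27me3, DLL1 had a region that was higher in OTX2low, against 7.15% of scanned genes, and none of the 9 was higher in OTX2high, against 3.38%. The share higher in OTX2high is thus near the background, which itself leaned to OTX2high. Over 10726 genes with an H3K4me3 region the median log2 ratio was 0.53, and over the 7 genes here it was 0.58. Each ratio is therefore also given relative to that median. In bulk chromatin, fewer cells that carry a mark and less of the mark per cell cannot be told apart.

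**Figure D2:**
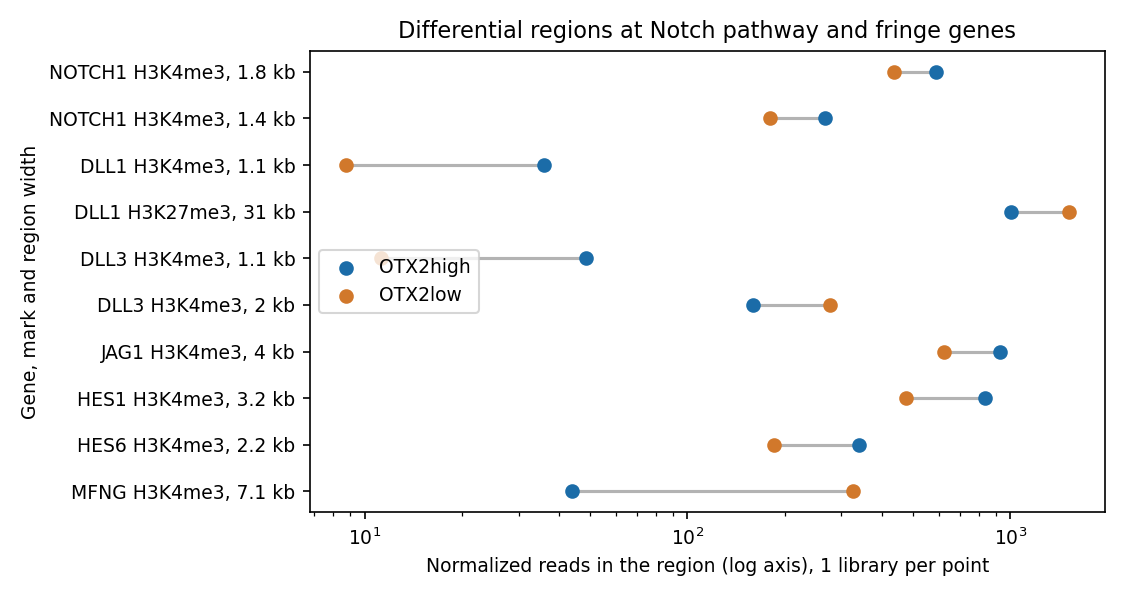
Each line is 1 differential region, named by gene, mark and width, and the points are the normalized reads of the OTX2high and OTX2low libraries on a log axis. MFNG shows the widest gap toward OTX2low, at 43.87 against 324.67 normalized reads, and the first regions of DLL1 and DLL3 show wide gaps at low read numbers.

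NOTCH1, the receptor, carried strong H3K4me3 at its start in both conditions. Its span is chr9:136494433-136546048 on the - strand. The peak over the start was 4769 bp wide with a fold of 48.8 in OTX2high, and 3347 bp wide with a fold of 38.3 in OTX2low. In the authors' deposited table, the region chr9:136543601-136545400, which ends 648 bp downstream of the start, held 588.72 normalized reads for OTX2high against 434.99 for OTX2low, with a log2 ratio of 0.44 and an adjusted p of 0.000132. The reads recovered from those values were 738 and 347, which gives a 95% interval of 0.25 to 0.62 for counting error. The region upstream of the start, chr9:136546401-136547800, is listed in the authors' deposited table with 266.44 and 180.51 normalized reads and a log2 ratio of 0.56. Both were thus higher in OTX2high, by 1.35-fold and 1.48-fold, and relative to the median over genes they stood at -0.09 and 0.03. Weak peaks inside the gene, with folds of 4.22 or less in OTX2high and 4.58 or less in OTX2low, were the only others.

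JAG1, a Jagged ligand, also had strong H3K4me3 at its start, with a ratio close to the median over genes. Its start, on the - strand of chr20:10637684-10673999, lay inside 1 peak of 4690 bp with a fold of 43.4 in OTX2high and 1 peak of 3778 bp with a fold of 34.2 in OTX2low. The region chr20:10669801-10673800, from 199 bp downstream of the start into the gene, is listed in the authors' deposited table with 926.96 normalized reads for OTX2high, 621.77 for OTX2low and a log2 ratio of 0.58. The counting interval, from 1162 and 496 reads, was 0.42 to 0.73. Relative to the median over genes the ratio was 0.05.

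DLL1, a Delta ligand made by differentiating neural cells, carried both marks. Its span is chr6:170282206-170291078. The strongest H3K4me3 peak lay near the higher-coordinate end of the gene and was 3515 bp wide with a fold of 28.3 in OTX2high. In OTX2low the stretch was split into peaks of 1996 and 817 bp with folds of 22.1 and 12.1. None of these wide peaks was in a differential H3K4me3 region. The H3K4me3 region that was listed, chr6:170285901-170287000 in the body of the gene, is given by the authors' deposited table with 35.9 normalized reads for OTX2high, 8.77 for OTX2low, a log2 ratio of 2.03 and an adjusted p of 0.00127. Only 45 and 7 reads stand behind it, so the counting interval ran from 0.87 to 3.43. Peaks of fold 4.22 and 3.31 lay inside it in OTX2high, and none did in OTX2low.

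H3K27me3 at DLL1 was among the strongest of its list. The list labelled OTX2high had 12 peaks there, which covered 8565 bp or 66.5% of the extended span, and the strongest, at fold 11.1, stood above 99.6% of all peaks of that list. The list labelled OTX2low had 7 peaks over 1186 bp, or 9.21% of the span, with a highest fold of 6.57. The estimated fragment length of that list was 78 bp, against 169 bp in the other, and its part in the peak widths was not tested. In the authors' deposited table a region of 31 kb, chr6:170276001-170307000, held 1005.01 normalized H3K27me3 reads for OTX2high against 1515.71 for OTX2low, with a log2 ratio of -0.59. It also overlaps the span of FAM120B. The interval from 879 and 1733 reads was -0.71 to -0.47, and the ratio relative to the H3K27me3 median over 2139 genes, which was -0.33, was -0.26. Of those 2139 genes, 105 had a lower ratio. The OTX2high H3K4me3 peaks overlapped those of the H3K27me3 list labelled OTX2high by 3300 bp and those of the list labelled OTX2low by 669 bp. For the OTX2low H3K4me3 peaks these overlaps were 2625 bp and 503 bp. Which of these pairs share a condition depends on the H3K27me3 labels, so no direction is drawn from them.

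DLL3, a ligand of neuroendocrine and neural cells that acts inside the cell on the receptor, had H3K4me3 differences of opposite direction within 3300 bp. Its span is chr19:39498947-39508469. The region chr19:39497201-39498300, outside the lower-coordinate end, has 48.66 normalized reads for OTX2high, 11.28 for OTX2low and a log2 ratio of 2.11 according to the authors' deposited table. The neighbouring region chr19:39498501-39500500, over that end of the gene, has 159.54 and 275.78, with a log2 ratio of -0.79, according to the authors' deposited table. The counting intervals were 1.09 to 3.30 and -1.07 to -0.51. Both regions were listed because a test on the same reads called them, so intervals away from 0 add no support. The reads behind the intervals were 61 and 9 for the first region and 200 and 220 for the second. Relative to the median over genes the ratios were 1.58 and -1.32. The authors' deposited table of clusters lists these 2 regions as 1 cluster of 3300 bp with an adjusted p of 0.00923.

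The peaks at that end differed as well. In OTX2high 1 peak of 2447 bp with a fold of 16.3 reached into both regions. In OTX2low a peak of 1317 bp with a fold of 20.0 lay over the end of the gene, and a separate peak of 347 bp with a fold of 4.58 lay outside it. The strongest H3K4me3 peak of DLL3 was at its other end, with folds of 34.3 in OTX2high and 28.7 in OTX2low, and no differential region lay there. A single H3K27me3 peak of 268 bp with a fold of 4.83, in the list labelled OTX2high, lay wholly inside the H3K4me3 peaks of both conditions.

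HES1, the classical Notch target, carried more H3K4me3 in OTX2high than in OTX2low. Its span is chr3:194136148-194138732 on the + strand. The region chr3:194135101-194138300, which covers the start and the sequence with the RBPJ letters shown above, is listed in the authors' deposited table with 836.01 normalized reads for OTX2high, 473.85 for OTX2low and a log2 ratio of 0.82. The interval from 1048 and 378 reads was 0.65 to 0.99, which lies above the median over genes, and relative to that median the ratio was 0.29. Of the 10726 genes with a region, 1915 had a higher ratio. The peaks differed in shape too. In OTX2high 1 peak of 5213 bp with a fold of 35.2 ran across the start. In OTX2low there were 3 peaks, with folds of 21.2, 17.9 and 6.66. They left a gap of 429 bp over the start, from 291 bp before it to 138 bp after it. The OTX2low library held 20914582 tags, against 33137731 in OTX2high. The strongest peaks at NOTCH1, DLL1, JAG1, HES5, HES6, LFNG and RFNG were also narrower in OTX2low. That of DLL3 was wider, at 1301 bp against 1182 bp, and MFNG had peaks in OTX2low alone. The part of library depth in the split at HES1 was not tested.

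HES6, which promotes neuronal differentiation by opposing HES1, had a similar ratio, but upstream of its start. Its span is chr2:238238267-238240038 on the - strand. The peak over the start had a fold of 48.5 in OTX2high and 30.2 in OTX2low, and a separate peak upstream had folds of 27.7 and 14.6. The region chr2:238240501-238242700, which begins 463 bp upstream of the start, is listed in the authors' deposited table with 339.03 normalized reads for OTX2high, 185.53 for OTX2low and a log2 ratio of 0.87. The interval from 425 and 148 reads was 0.60 to 1.15, and the ratio relative to the median over genes was 0.34. The start itself was outside the region.

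HES5, the other classical target, had no H3K4me3 peak over its span in either condition, and its sequence carries 2 copies of the RBPJ letters. Its span is chr1:2528745-2530263 on the - strand. The peak counted for it lay outside the gene, 1663 bp past its lower-coordinate end in OTX2high and 1901 bp past it in OTX2low, and covered the start of the neighbouring gene PANK4. Its folds were 49.4 and 43.7, and the summits were 4409 and 4397 bp from the HES5 start. No differential region and no H3K27me3 peak lay at HES5. Without the 2 kb extension HES5 had no peak, and the counts of genes with an H3K4me3 peak were 8 of 10 in OTX2high and 9 of 10 in OTX2low.

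**Figure D3:**
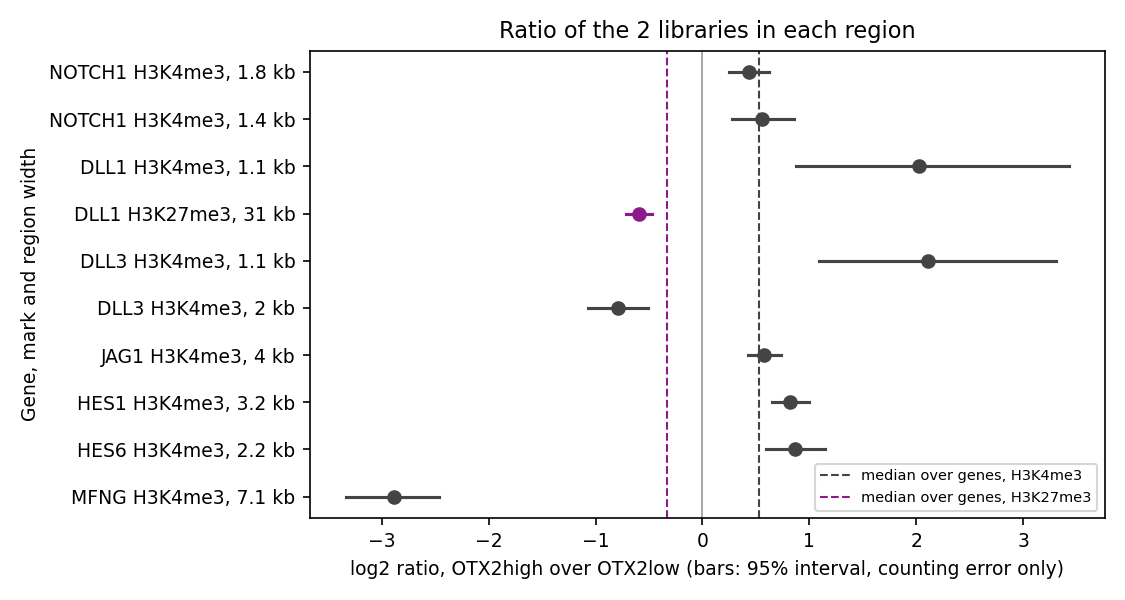
Points are log2 ratios of OTX2high over OTX2low in each differential region, with 95% counting intervals as bars and dashed lines at the medians over genes, 0.53 for H3K4me3 and -0.33 for H3K27me3. NOTCH1 and JAG1 sit next to the H3K4me3 median, HES1 and HES6 to the right of it, and MFNG far to the left at -2.89.

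MFNG, the fringe enzyme known as manic fringe, had the strongest difference of the genes described and the opposite direction from most of them. Its span is chr22:37469063-37486384. No H3K4me3 peak was listed for it in OTX2high. In OTX2low a peak of 2256 bp at chr22:37484401-37486656, over its higher-coordinate end, had a fold of 12.4 and a -log10 q-value of 30.1, and a second one of 244 bp had a fold of 2.91. The region chr22:37480501-37487600 is listed in the authors' deposited table with 43.87 normalized reads for OTX2high, 324.67 for OTX2low and a log2 ratio of -2.89. The reads were 55 and 259, the interval was -3.33 to -2.46, and H3K4me3 was thus 7.40-fold higher in OTX2low, or -3.42 on the log2 scale relative to the median over genes. In the authors' deposited table the ratio of ChIP over IgG reads in the region was 1.13 in OTX2high and 6.72 in OTX2low, so the OTX2high library was close to its IgG control there. Of 8868 genes whose region held at least 100 normalized reads in 1 library, 7 had a lower ratio than MFNG, and 509 of all 10726 genes did.

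H3K27me3 also lay at MFNG, mostly in the part of the gene away from the H3K4me3 peak. The list labelled OTX2high had 18 peaks over 8288 bp, with a highest fold of 5.68, and the list labelled OTX2low had 9 peaks over 1293 bp, with a highest fold of 5.56. The overlap with the OTX2low H3K4me3 peaks was 154 bp, all in the list labelled OTX2high. The authors' deposited table held no differential H3K27me3 region at MFNG.

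**Figure D4:**
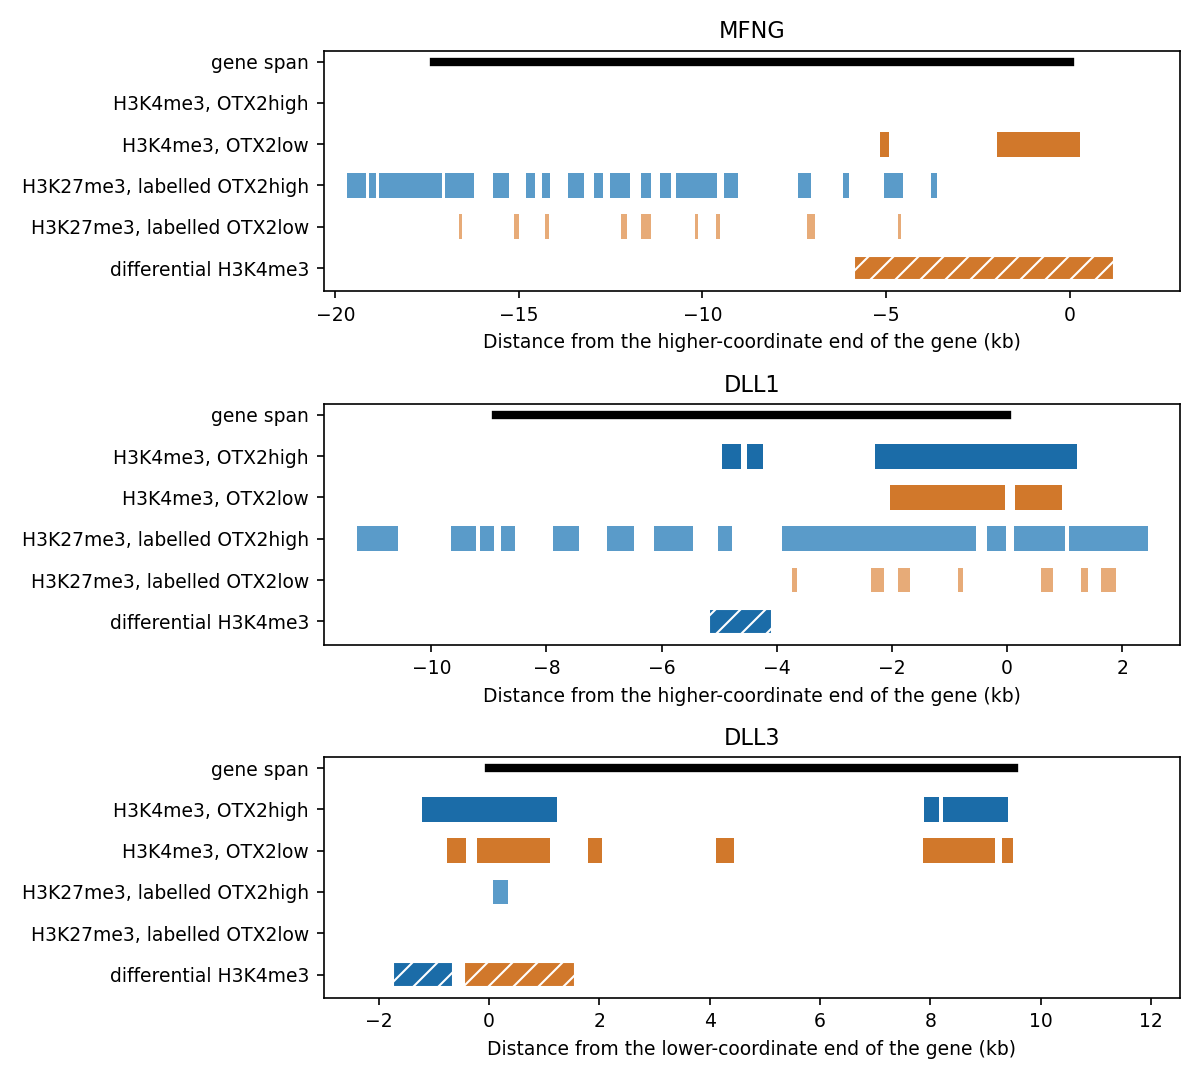
Bars are the peaks of the 4 lists at MFNG, DLL1 and DLL3 and the differential H3K4me3 regions (hatched, blue where higher in OTX2high and orange where higher in OTX2low), with the black bar as the gene span and the axis in kb from 1 end of the gene. The 2256 bp peak at the end of MFNG has no counterpart in OTX2high, H3K27me3 covers more of DLL1 in the list labelled OTX2high, and the regions of both directions at DLL3 lie side by side.

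The genes most like MFNG in their normalized H3K4me3 reads, by Euclidean distance on the log2 scale over the 2 libraries, were NPTX2, BARHL1 and HOXA13, at distances of 0.694, 0.738 and 0.881. In the authors' deposited table NPTX2, which encodes a neuronal pentraxin, had 69.4 normalized reads for OTX2high against 280.8 for OTX2low. BARHL1, a homeobox factor of cerebellar granule neuron progenitors, had 72.59 and 354.76 in the authors' deposited table, and HOXA13, a posterior homeobox gene, had 62.22 and 196.81.

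Of the other fringe genes, lunatic fringe (LFNG) had no differential region and radical fringe (RFNG) was not scanned for one. LFNG, at chr7:2512529-2529177 on the + strand, had 1 peak in each condition, with folds of 16.6 and 13.3, and no differential region. The peak did not cover either listed start, and its summit was 2401 bp from the nearer start in OTX2high and 2366 bp in OTX2low. RFNG, at chr17:82047902-82051811 on the - strand, had peaks of 3705 and 3055 bp with folds of 70.8 and 66.2, above 99.8% and 99.9% of the peaks in their lists. The same peaks cover the start of GPS1. RFNG lies past the stretch that was scanned: the last differential region of either table on chromosome 17 ends at position 81167600, and 101 H3K4me3 peaks in OTX2high and 95 in OTX2low lie beyond it, together with 62 genes. The lack of a region at RFNG therefore says nothing about its H3K4me3.

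The rest of the pathway was described from a list of 47 genes. All 47 had an H3K4me3 peak in both conditions, against 75.0% of all protein-coding genes in OTX2high and 73.7% in OTX2low. H3K27me3 peaks lay at 16 of them (list labelled OTX2high, against 25.8% of all genes) or 11 of them (list labelled OTX2low, against 17.7%). H3K4me3 regions were higher in OTX2high at 17 genes, higher in OTX2low at 8 and of both directions at 6, against 42.0%, 6.04% and 6.03% of scanned genes, and 16 had none. The median log2 ratio over the 31 genes with a region was 0.44, against 0.53 over all genes. By role, 6 of 7 corepressor genes were higher in OTX2high, against 42.0% of scanned genes, and none was higher in OTX2low, against 6.04%. Their median log2 ratio was 0.45, near the general median. Among 8 genes listed as targets, a label that was not tested here, 2 had regions that all leaned to OTX2high and 2 to OTX2low. Among 8 protease genes the counts were 4 and 2. The same background shares apply to both groups.

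The genes of this list farthest from the median were mostly higher in OTX2low. That order is largely built in, because the median is 0.53 and any gene higher in OTX2low has a ratio below 0. It is therefore no result about the pathway. NCSTN, a subunit of the gamma-secretase that cuts the receptor, is listed in the authors' deposited table with 289.57 normalized reads for OTX2high against 580.4 for OTX2low, which is -1.53 relative to the median over genes on the log2 scale. Its region lies over the span of the neighbouring gene COPA. The authors' deposited table gives the ubiquitin ligase gene DTX1 a log2 ratio of -0.93, and NEURL1B, whose product acts on ligands, had -0.88. DLL4, a Delta ligand, has 482.62 and 769.69 normalized reads in the authors' deposited table and a log2 ratio of -0.67. NUMBL, a relative of the Notch inhibitor NUMB, had 584.73 and 928.89 normalized reads, also at -0.67, in the authors' deposited table. The H3K4me3 regions of DLL4 and DLL1, both Delta ligand genes, had opposite directions but are unlike. This DLL4 region covers the gene's start and held 605 and 614 reads. The DLL1 region lies in the gene body and held 45 and 7, and the strongest DLL1 peak was in no differential region. Among the genes listed as targets, HES3 had -0.68 and HEY1 -0.31 in the authors' deposited table, whereas HES7 had 0.78, close to HES1. Over IgG, the authors' deposited table gives HES3 26.74 in OTX2high and 22.86 in OTX2low, and DTX1 12.97 and 12.67. For both genes that is the opposite direction from the normalized reads. JAG2 had 0.76 in the authors' deposited table, and TLE1, a corepressor, had 0.37. RBPJ, the DNA-binding partner of the receptor, and FBXW7, which marks the receptor for degradation, each had 0.81 at their region with the most reads in the authors' deposited table, with other regions of the opposite direction.

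**Figure D5:**
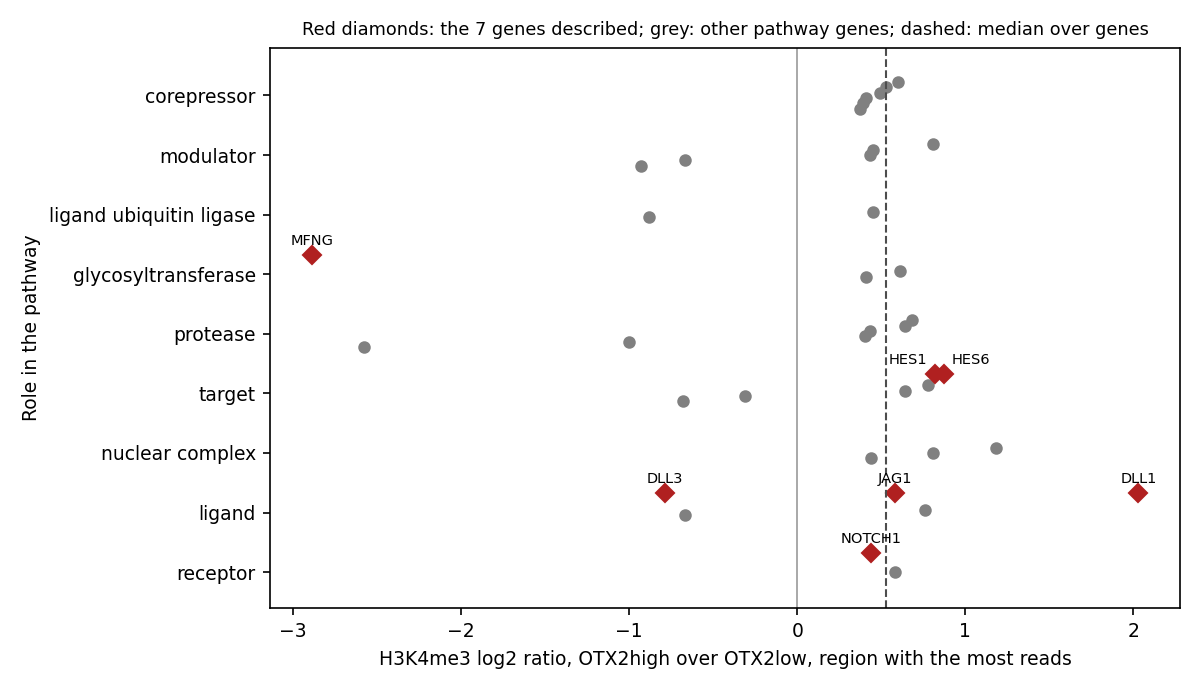
Points are the log2 ratio of OTX2high over OTX2low for H3K4me3 at the region with the most reads, by role in the pathway, with red diamonds for the 7 genes named beside them and grey points for 31 other pathway genes (height within a row has no meaning). The dashed line is the median over genes, 0.53. MFNG at -2.89 and DLL3 at -0.79 lie on the other side of 0 from NOTCH1, JAG1, HES1, HES6 and DLL1.

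H3K27me3 regions were found at 8 of the 47 other genes, and all 8 were higher in OTX2low, like that of DLL1, against 7.15% of scanned genes in that direction and 3.38% in the other. Genes listed as targets made up 5 of them. In the authors' deposited table HES2 had a log2 ratio of -0.33, HES3 -0.32, HES4 -0.40, HEY2 -0.43 and NRARP -0.47. NOTCH4 had -0.32, NEURL1 -0.29 and DTX1 -0.38 in the authors' deposited table. Relative to the H3K27me3 median over genes these ratios ranged from -0.14 for NRARP to 0.04 for NEURL1, whereas DLL1 stood at -0.26. At HEY2 the ratios of ChIP over IgG reads in the authors' deposited table were 1.04 and 1.73, close to the IgG control. At HES3 they were 6.85 in OTX2high and 6.46 in OTX2low, the opposite direction from its normalized reads. HES4, with 7786.25 and 10269.77 normalized reads in the authors' deposited table, had the most reads of the 8. Its region was 117000 bp long, whereas the others were 15000 to 26000 bp, so these read numbers do not rank the genes. Other genes inside the 8 regions were not looked for, so each ratio describes its whole region and not the named gene alone.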

How the data were processed

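Chromatin from D283 tumorspheres was profiled in 4 histone mark libraries, 1 per mark and condition, and 2 IgG libraries, whose titles and silencing labels name opposite conditions and which were put in no group. The submitters' processing notes name GRCh38, Bowtie2 (version 2.3.3.1) and MACS2 (version 2.1.1.20160309). Each library's peaks were called by MACS2 at a q-value of 0.05, with 1 IgG library as control, per the file headers. The authors' peak lists give a pileup signal, a fold enrichment ratio, a -log10 p-value and a -log10 q-value per peak. The authors compared the conditions with diffReps 1.55.6 and its G-test, in windows of 1000 bp moved by 100 bp for H3K4me3 and of 10000 bp moved by 1000 bp for H3K27me3, per the file headers. The deposited tables give read signal scaled per library, a ratio over IgG, the p-value with its adjusted p-value, and the log2 ratio, positive where OTX2high is higher. Those headers name hg19 while the peaks are on GRCh38, and the 139 genes past the last region listed on their chromosome were taken as not scanned.

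Computed here with Python 3.11.15, numpy 2.4.6, pandas 2.3.3 and scipy 1.17.1 were the overlaps, gene counts, medians and motif matches. Figures were drawn with matplotlib 3.10.9. A gene was higher in a condition when all its regions had that direction, and its log2 value was taken from the region that held most reads. For H3K4me3, a single read equalled 0.798 (OTX2high) or 1.25 (OTX2low), and for H3K27me3 1.14 or 0.875; division gave whole reads within 0.05 for 100.0% of values in each. The G-test recomputed on them called 21714 of 21714 H3K4me3 and 5401 of 5401 H3K27me3 regions, which were already the authors' calls. Intervals of 95% are exact (Clopper-Pearson) on these reads and cover counting error only, since PCR reads are not independent molecules. The interval calculation was tested on simulated data. The members and the pathway list were chosen with earlier results of these data known. All members are named, with up to 12 other pathway genes farthest from the median with at least 100 normalized reads in 1 library, every pathway gene with an H3K27me3 region, and the 3 genes nearest to the most different member. Alternatives were the span extension, stricter thresholds, recentring and the ratio over IgG. RefSeq promoter windows matched 7 of the 10 members.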

Additional observations from a re-analysis of the deposited data

How the results depend on the processing

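Counts were recomputed with the gene span extended by 0 or 5 kb in place of 2 kb and with stricter thresholds or overlaps, and counts of regions also within peaks of the mark and relative to the median over genes. Ratios were recomputed with reads summed over regions, from the ratios over IgG, relative to that median and, except for HES6, without the extension. The G-test on recovered reads was added after seeing the data. Of all these values 67 stayed close to those reported, 23 moved and 1 reversed. With a -log10 q-value of at least 10, H3K27me3 peaks were listed at 1 gene (labelled OTX2high) and at 0 genes (labelled OTX2low). With an adjusted p of at most 1e-10, which leaves fewer regions, 2 of the genes described were higher in OTX2high and 0 had both directions, and of the other pathway genes 4 were higher in OTX2high, 3 in OTX2low and 0 in both directions. Without the extension HES6 had no region and DLL3 lost its outer one, so 2 genes were higher in OTX2low and 0 had both directions. Relative to the median over genes, 2 of the genes described had both directions, and of the other pathway genes 8 were higher in OTX2high, 13 in OTX2low and 10 in both directions. Limited to peaks, 3 other pathway genes had both directions. No share over all genes is given at these settings, so these counts show no lean of the pathway in either direction. NOTCH1 changed sign, from 0.44 to -0.09, when set against that median; no other ratio of the genes described changed sign where it was recomputed. DLL3 summed over its regions gave -0.46, and over IgG the ratio was 1.10 at JAG1 and 1.09 at HES1. Depth limits the first regions of DLL1 and DLL3, with 7 and 9 reads in OTX2low. The part of library depth in the narrower or split H3K4me3 peaks of OTX2low was not tested. With 1 library per mark and condition no spread between libraries could be measured.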

Other observations

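The ratio of ChIP over IgG reads differed from the reads alone at some genes. In the authors' deposited table JAG1 had 51.99 over IgG in OTX2high and 24.3 in OTX2low, and HES1 had 45.32 and 21.27, both wider apart than the normalized reads were. The NOTCH1 regions differed in this: in the authors' deposited table the region downstream of the start had 100.79 and 83.44 over IgG, closer together than its normalized reads, and the region upstream had 39.39 and 22.41, wider apart. The weak regions of DLL1 and DLL3 that were higher in OTX2high stood at 1.16 and 1.08 over IgG in OTX2low in the authors' deposited table, so that library was near its control there, as the OTX2high library was at MFNG.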
